A study of Mus musculus with 30 samples.

Results

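The distal anchors described here are genomic sites of NOS1+ N1E115 mouse neuroblastoma cells at which CTCF and the cohesin subunit RAD21 were both called in every ChIP-seq library, away from gene ends and without an H3K9ac peak. The peaks of the 4 CTCF lists were merged where they shared at least 1 bp, which gave 146989 regions on chromosomes 1 to 19, X and Y. Of these, 40192 had a peak in all 4 CTCF lists and 20519 also had one in all 4 RAD21 lists. Of those, 15602 lay more than 2.5 kb from every protein-coding gene end, and 8787 of them overlapped no H3K9ac peak of any library. The 8787 distal anchors are thus 5.98% of all merged CTCF regions and 21.9% of the regions shared by the 4 CTCF lists. CTCF, RAD21 and H3K9ac peak calls chose these sites, so their presence there is a description and not a finding.

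All cells came from the same line, N1E115, a mouse neuroblastoma line that the labels give as positive for NOS1, the neuronal nitric oxide synthase. They were cultured for 3 days at 4% O2 (hypoxia) or at 20% O2 (normoxia), and chromatin was immunoprecipitated with antibodies against CTCF, RAD21, H3K9ac, RNA polymerase II (POLR2) and its serine-5 (POLR2S5) and serine-2 (POLR2S2) phosphorylated forms. Each antibody had 2 libraries at 4% O2 and 2 at 20% O2, 24 libraries in all, and 6 input samples were not analysed here. No label says that the replicates came from separate cultures, so the spread that p-values are set against is the one among the libraries at hand and could be purely technical. The cells are 1 line. ChIP was done on bulk cells, so fewer cells carrying a bound site and less binding per cell cannot be told apart.

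CTCF is a zinc-finger protein that binds a long, directional DNA motif. Cohesin is a ring-shaped complex, closed by RAD21, that is thought to extrude chromatin loops and to stop at CTCF bound in the right orientation, so that sites holding both mark many loop bases and domain borders. H3K9 acetylation marks active promoters and enhancers. Serine-5 phosphorylation of the polymerase is highest near gene starts and serine-2 phosphorylation accompanies elongation through gene bodies.

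Sequence was at hand only for the windows around annotated gene starts in the RefSeq promoter table of GRCm38.p6, which is the mm10 build of the peak lists. Of the 8787 anchors, 76 overlapped such a window, and they overlapped 81 windows. Of these windows, 74 belong to long non-coding RNAs (lncRNAs) and 7 to protein-coding genes. The rule's distance ran to the outer ends of protein-coding genes, so annotated starts inside a gene were not excluded. The CTCF summit, the base of highest signal in the replicate 2 lists averaged over 4% and 20% O2, fell inside the window at 35 of the 81. The 12-base core of the CTCF motif was found, with no mismatch and on either strand, in 7 of those 35 windows (20.0%), against 306 of the 3914 windows (7.82%) that overlap any region in all 4 CTCF lists and 797 of all 32851 windows (2.43%). Over all 81 windows that overlap an anchor, the like measure to the 3914, the share was 14.8%. The shorter AGNNGGC, which is part of the core, was in 88.6% of the 35 windows and 71.6% of the 81, against 76.2% of the 3914 and 59.8% of all windows. With 1 mismatch allowed, the core was in 74.3% of the 35 windows and 50.6% of the 81, against 47.7% of the 3914 and 30.6% of all windows. By overlap alone, anchor windows thus held the exact core more often than the 3914, the near match about as often and the shorter pattern less often, with no test.

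The 7 anchors with a core beside the summit are shown because they place the peaks on the DNA; they were chosen after their values were seen. Each line gives 60 bases of the strand that carries the motif, 5′ to 3′, named by the lncRNA whose start it flanks, with the 12 bases of the motif in capitals:
Gm12236, chr11:55518938-55518997, plus strand: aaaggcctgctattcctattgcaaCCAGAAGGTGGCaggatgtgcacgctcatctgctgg
Gm40029, chr11:67350561-67350620, minus strand: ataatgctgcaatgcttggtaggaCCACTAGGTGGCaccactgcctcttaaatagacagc
Gm29873, chr11:95687433-95687492, plus strand: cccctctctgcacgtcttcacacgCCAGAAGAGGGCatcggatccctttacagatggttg
Gm41453, chr16:38482973-38483032, minus strand: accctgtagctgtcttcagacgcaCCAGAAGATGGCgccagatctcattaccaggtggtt
Gm36126, chr19:29684273-29684332, plus strand: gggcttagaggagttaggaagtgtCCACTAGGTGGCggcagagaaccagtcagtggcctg
Gm39902, chr2:106955771-106955830, minus strand: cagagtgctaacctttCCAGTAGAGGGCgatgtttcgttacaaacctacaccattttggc
Gm34325, chr2:122569591-122569650, plus strand: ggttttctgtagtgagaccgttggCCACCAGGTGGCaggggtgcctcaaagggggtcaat

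Along these strands the RAD21 summit lay after the motif's centre, on its 3′ side, in 7 of 7 anchors, between 8.5 bp at Gm29873 and 36.5 bp at Gm41453, with a median of 23.5 bp. The CTCF summit lay closer, with a median distance of 9.5 bp in either direction, and was after the centre in 5 anchors and before it in 2. With direction counted, its median position was 8.5 bp after the centre. At 118 other sites with CTCF and RAD21 in all lists whose CTCF summit lay in a promoter window within 50 bp of a core, and whose RAD21 summit lay within 200 bp of it, the RAD21 summit was on the 3′ side in 94 (79.7%), with a median position of 15.5 bp after the centre. The CTCF summit at the 118 sites was also on the 3′ side in 76, with a median position of 6.5 bp after the centre. These are descriptions of the few sites near gene starts for which sequence was at hand.

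**Figure D1:**
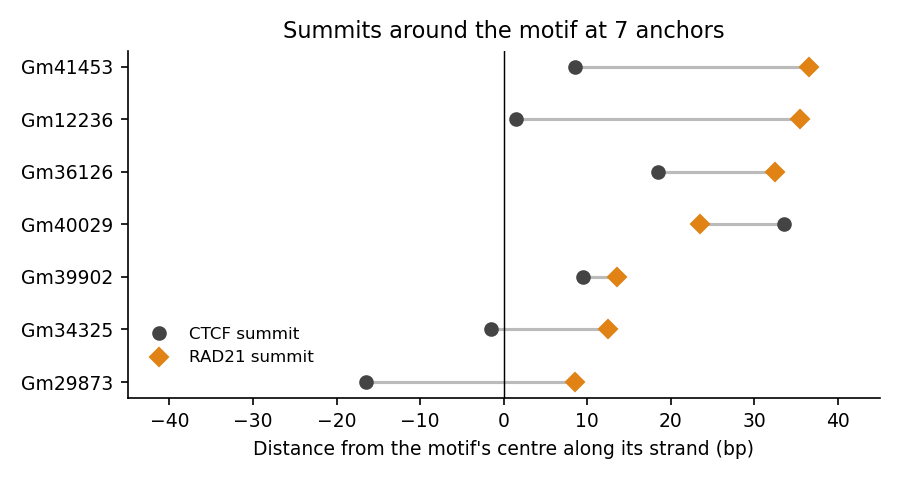
Position of the CTCF summit (circles) and of the RAD21 summit (diamonds) along the motif's strand, in bp from the motif's centre, at the 7 anchors with a core motif beside the summit, each named by its lncRNA. All 7 diamonds lie right of 0, between 8.5 and 36.5 bp.

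Another 2 anchors were named for their high RAD21 rank among anchors at non-coding gene starts, and both have a near match to the core, with 1 mismatch, at the summit. The sequences are shown in the same way, with the near match in capitals:
A230108P19Rik, chr2:6193150-6193209, plus strand: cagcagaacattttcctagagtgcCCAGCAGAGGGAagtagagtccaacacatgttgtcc
Gm39360, chr9:64100628-64100687, minus strand: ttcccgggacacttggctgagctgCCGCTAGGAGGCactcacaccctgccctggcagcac

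At A230108P19Rik the CTCF summit was 9.5 bp and the RAD21 summit 17.5 bp after the centre of the near match, and at Gm39360 the distances were 8.5 and 18.5 bp. The RAD21 summit thus stood farther to the 3′ side than the CTCF summit at both sites, as at 6 of the 7 anchors above; at Gm40029 the CTCF summit, at 33.5 bp, stood farther than the RAD21 summit, at 23.5 bp.

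The anchor regions had a median length of 947 bp (interquartile range 594 to 1433 bp), and 2634 of them (30.0%) held exactly 1 peak in each of the 8 CTCF and RAD21 lists. The rule required CTCF and RAD21 peaks to overlap the same region, and their summits lay close together, as at other sites that hold both. In the replicate 2 lists, which have summits, the CTCF and RAD21 summits were a median of 19 bp apart at 4% O2 and 15 bp apart at 20% O2, and 83.3% of anchors at 4% O2 and 91.9% at 20% O2 had them within 50 bp. At distal sites with CTCF, RAD21 and H3K9ac in all 4 libraries, the median summit distances were 16 bp at 4% O2 and 13 bp at 20% O2. At such sites at gene ends they were 15 and 14 bp, so the closeness is not particular to the anchors. At the anchors the position hardly moved with oxygen: the summits at 4% and at 20% O2 were a median of 15 bp apart for CTCF and 16 bp apart for RAD21. This comparison has 1 library per oxygen level and no test. Peak centres, which all lists give, were farther apart, with medians of 60.5 and 64.5 bp in the 4% O2 libraries and 61.0 and 67.5 bp in the 20% O2 libraries.

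**Figure D2:**
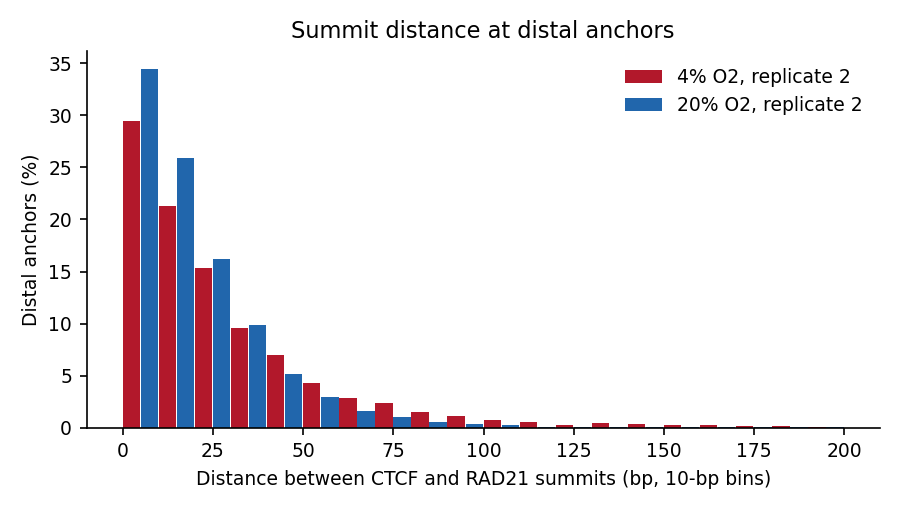
Share of the 8787 distal anchors (%) by the distance between the CTCF and RAD21 summits in bins of 10 bp, in the replicate 2 libraries at 4% O2 (red, left bar of each pair) and 20% O2 (blue, right bar). Both distributions peak in the nearest bin, with medians of 19 bp at 4% O2 and 15 bp at 20% O2.

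The rule's limits cut through a continuum. There were 443 anchors between 2.5 and 3.5 kb from a gene end, and 475 sites that met every other condition lay between 1.5 and 2.5 kb. A further 2563 distal sites without H3K9ac had RAD21 in 3 of the 4 lists. Of these, 563 lacked it at 4% O2 replicate 1, 547 at 4% O2 replicate 2, 1424 at 20% O2 replicate 1, the shortest RAD21 list, and 29 at 20% O2 replicate 2. The median CTCF score in 4% O2 replicate 1 was 307 at the anchors, against 137 at these sites. Another 2350 had RAD21 in 2 of the 4 lists. Of these, 1502 had it in both replicate 2 lists only, 89 in both 4% O2 lists only and 419 in both 20% O2 lists only, so most of them were split by replicate number and not by oxygen.

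The anchors were spread over the genome at a median spacing of 125 kb, with 9.17% of neighbours under 10 kb apart and 5.29% over 1 Mb apart. They lay a median of 19240 bp from the nearest protein-coding gene end and 12745 bp from the nearest H3K9ac peak. Protein-coding genes held 4826 of them (54.9%), close to the 57.7% of all regions in the 4 CTCF lists. Among the 40192 shared CTCF regions of each chromosome, the share that were distal anchors was lowest on chromosome 11 (17.0%) and highest on the X chromosome (27.5%), with a median of 22.6% over the 20 chromosomes other than Y.

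Of 21887 protein-coding genes, 3394 (15.5%) held at least 1 anchor, 973 held 2 or more and 45 held 5 or more. Kalrn, which encodes a guanine nucleotide exchange factor of dendritic spines, held the most, with 13 anchors over 604 kb. Camta1, a calcium-responsive transcriptional activator, Dlg2, a scaffold of the postsynaptic density, and Nrxn3, a presynaptic adhesion protein, held 8 each, over 802, 1973 and 1612 kb. Fbxw7, a substrate receptor of a ubiquitin ligase, was named after its values were seen, because it held 7 anchors in only 164 kb, or 42.6 per Mb, against 21.5 per Mb in Kalrn.

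The 3 densest windows of 1 Mb held 19 anchors each. The window at chr16:33988586-34988585 covers most of Kalrn, with Ropn1, Ccdc14 and Mylk, and 18 of its 19 anchors lay inside genes while 0 had a POLR2S2 island in any library. The window at chr1:134053297-135053296, with Btg2, Kdm5b, Syt2 and 16 other genes, had 11 anchors inside genes and 6 with a POLR2S2 island. The window at chr5:34985916-35985915, with Rgs12, Adra2c and 11 other genes, had 12 anchors inside genes and 4 with such an island. The densest anchor clusters thus differed in how many of their anchors had a POLR2S2 island.

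Polymerase peaks were not used to choose the anchors. Most distal anchors had no polymerase island: 6162 of 8787 (70.1%) overlapped no POLR2, POLR2S5 or POLR2S2 island in any library, namely 56.7% of those inside genes and 86.5% of those outside. An island is a broad region of enrichment. No POLR2 island was called in any library at 87.6% of anchors, against 54.3% of all 40192 shared CTCF regions. Those regions include gene ends and sites with H3K9ac, which the rule kept out of the anchors. For POLR2S5 the shares without an island were 77.5% of anchors and 47.1% of all shared regions, and for POLR2S2 they were 74.3% and 53.6%. POLR2 islands covered 4.69% and 8.23% of anchors in the 4% O2 libraries (replicates 1 and 2), against 2.26% and 7.35% in the 20% O2 libraries. POLR2S5 islands covered 12.1% and 14.2% of anchors at 4% O2, against 10.7% and 16.1% at 20% O2. POLR2S2 islands covered the most anchors, 17.5% and 18.5% at 4% O2, against 13.4% and 19.2% at 20% O2. For each form the oxygen groups overlapped, and the differences of 1.65, -0.28 and 1.70 percentage points (4% minus 20% O2) gave exact two-sided permutation p-values of 0.667, 1 and 1, where 0.333 is the smallest that 2 against 2 libraries allow.

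Set against the 3281 distal CTCF sites that have neither RAD21 nor H3K9ac, the anchors overlapped islands of each form less often in 4 of 4 libraries. POLR2 islands covered 15.2% and 25.1% of those sites at 4% O2 and 5.70% and 21.8% at 20% O2, and the anchors were lower by a mean of 11.3 ± 5.88 percentage points (SD, n = 4 libraries). For POLR2S5 the anchors were lower by 15.9 ± 4.83 points and for POLR2S2 by 14.6 ± 4.10 points (SD, n = 4 libraries each). Each of the 3 differences had an exact two-sided sign-flip permutation p of 0.125, the smallest that 4 libraries allow, so this design cannot reach 0.05. The anchors were also the longer regions, with a median of 947 bp against 425 bp. With an island required at the region's centre the differences were -10.6, -15.0 and -14.4 points. Inside genes the mean differences were -12.6 (POLR2), -18.1 (POLR2S5) and -17.5 points (POLR2S2), against -7.65, -7.34 and -3.08 points outside genes. Genes held 65.0% of the sites without RAD21, against 54.9% of the anchors.

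The anchors lay farther from gene ends than the CTCF sites without RAD21, at a median of 19240 bp against 13019 bp, and farther from H3K9ac, at 12745 bp against 5535 bp. The classes were not matched for CTCF strength or for distance to H3K9ac, and the part of either in the island shares was not tested. Within bands of distance to a gene end the order was the same in 4 of 4 libraries. Between 2.5 and 10 kb, POLR2S2 islands covered 29.5% and 29.8% of the 2599 anchors at 4% O2 and 24.0% and 30.7% at 20% O2, against 41.5% and 45.4% at 4% O2 and 30.2% and 42.1% at 20% O2 of the 1341 sites without RAD21. Beyond 50 kb the shares were 3.66% and 4.45% of the 2158 anchors at 4% O2 and 3.80% and 6.30% at 20% O2, against 10.1% and 13.9% at 4% O2 and 6.26% and 14.5% at 20% O2 of the 447 sites without RAD21.

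**Figure D3:**
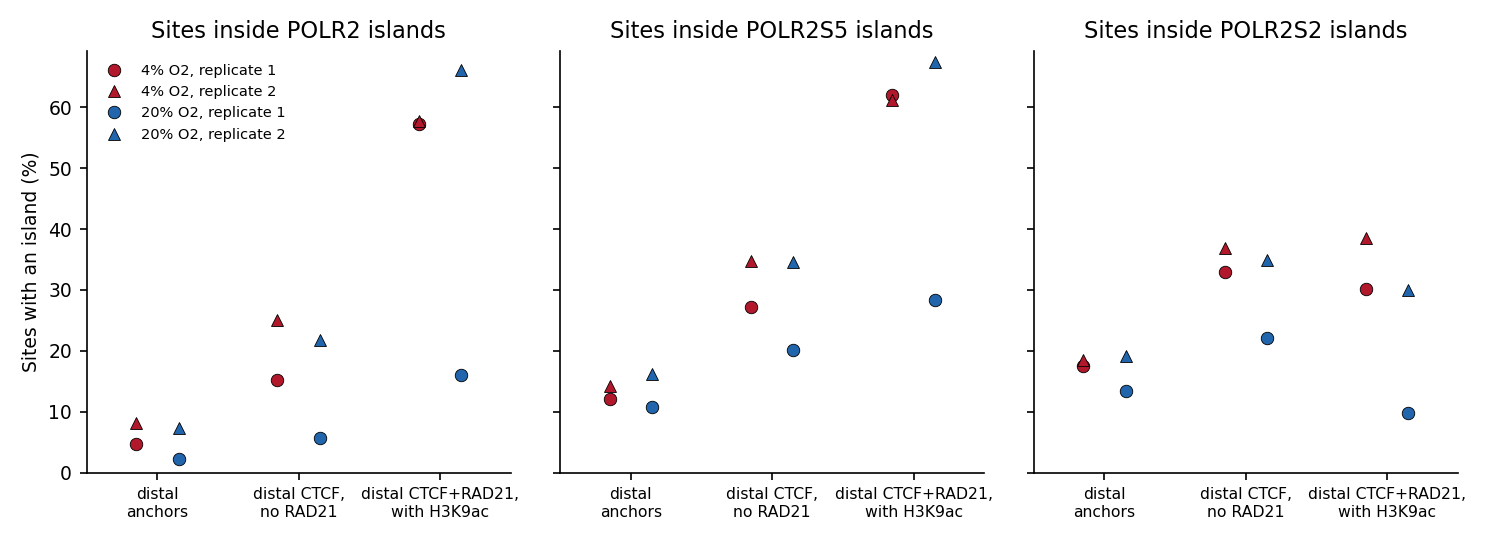
Share of sites (%) that overlap an island of POLR2, POLR2S5 or POLR2S2, for the distal anchors, distal CTCF sites without RAD21, and distal CTCF and RAD21 sites with H3K9ac in all 4 libraries. Each point is 1 library (4% O2 red, left; 20% O2 blue, right; circles replicate 1, triangles replicate 2), and the anchors sit between 2.26% and 19.2% in every panel.

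At the 3704 distal CTCF and RAD21 sites that carry H3K9ac in all 4 libraries, POLR2 islands were more frequent. The anchors were lower by a mean of 43.6 ± 20.3 points (SD, n = 4 libraries, sign-flip permutation p = 0.125). These classes were separated by H3K9ac, which the rule used and which marks active sites, and its part in the gap was not tested. For POLR2S2 the gap was smaller and did not hold in every library: the anchors were lower by 9.93 ± 9.92 points, lower in 3 of 4 libraries, with an exact sign-flip permutation p of 0.250. In 20% O2 replicate 1 the anchors were higher, at 13.4% against 9.75%. The POLR2 islands of that library covered 59.5 Mb in all, against 135 to 183 Mb in the other 3 POLR2 libraries, and its POLR2S5 and POLR2S2 islands also covered the least of their antibody's 4 libraries. The part of island coverage and sequencing depth in these shares was not tested.

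A POLR2S2 island stood over 768 anchors (8.74%, where 16.4% of all shared CTCF regions had one) in all 4 libraries, and 663 of these lay inside protein-coding genes. Of the 768, 277 (36.1%) overlapped no POLR2 island in any library. The like share over all shared CTCF regions was not computed, so nothing particular to the anchors is read from it. POLR2 islands covered 59.5 to 183 Mb per library, against 152 to 267 Mb for POLR2S2. Anchors with an island in both libraries of one oxygen level and in neither of the other were few. For POLR2S2 there were 110 such anchors at 4% O2 only (1.25%, where 2.79% of all shared CTCF regions did so) and 55 at 20% O2 only (0.626%, where 0.463% did so). For POLR2 there were 66 at 4% O2 only (0.751%, background 1.24%) and 17 at 20% O2 only (0.193%, background 0.231%). For POLR2S5 there were 45 at 4% O2 only (0.512%, background 1.02%) and 70 at 20% O2 only (0.797%, background 0.697%). These shares are over all sites, and fewer anchors than shared CTCF regions had any island, so nothing is read from their order.

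The strength of CTCF and RAD21 at the anchors was compared by rank, since the deposited scores, read as −log10 q-values, differ in scale between lists. The median CTCF score at the anchors was 307 and 38.5 in the 4% O2 libraries (replicates 1 and 2), against 279 and 90.2 in the 20% O2 libraries. The median RAD21 score was 44.2 and 31.4 at 4% O2, against 31.6 and 56.9 at 20% O2. The rank of a region is the percentile of its best peak among the 40192 regions in all 4 CTCF lists, or among the 21298 merged regions in all 4 RAD21 lists. A rank gives a site's standing relative to the other sites of its library and not its absolute occupancy.

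RAD21, which closes the cohesin ring, had lower median ranks at the anchors in both 4% O2 libraries than in either 20% O2 library. The median rank was 36.9 and 34.2 in the 4% O2 libraries, against 45.6 and 37.8 in the 20% O2 libraries (8781 anchors with a ranked region). The means were 35.5 ± 1.88 at 4% O2 and 41.7 ± 5.51 at 20% O2 (SD, n = 2 each), a difference of -6.15 points with an exact permutation p of 0.333, the smallest possible. A round here means only the replicate number, and libraries of the same number need not share a flow cell. Within rounds the medians differed by -8.72 and -3.58 points. By anchor, 1502 (17.1%) ranked at least 10 points lower at 4% O2 in both rounds, against 10% of all ranked regions, and 496 (5.65%) ranked at least 10 points higher, against 8.63%. Without 20% O2 replicate 1 the difference was -2.25 points, and without 20% O2 replicate 2 it was -10.05 points.

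For CTCF the oxygen groups of medians stood closer together. Its median rank was 63.3 and 59.2 at 4% O2, against 64.4 and 63.2 at 20% O2, a difference of -2.53 points (exact permutation p = 0.667; within rounds -1.08 and -3.99), and without 4% O2 replicate 2 it was -0.48 points. CTCF ranked at least 10 points lower at 4% O2 in both rounds at 460 anchors (5.24%), against 3.18% of all regions, and at least 10 points higher at 97 (1.10%), against 2.70%. Of the 460 anchors with lower CTCF, 203 also had lower RAD21 and 1 had higher RAD21. The 203 are 44.1% of the CTCF list and 13.5% of the RAD21 list of 1502. Of the 97 with higher CTCF, 35 (36.1%) also had higher RAD21. The like shares over all sites with both proteins were not computed, so nothing particular to the anchors is read from these counts. Across the 8781 anchors, CTCF ranks correlated with RAD21 ranks from the separate RAD21 library of the same oxygen level and replicate number. Pearson's r was 0.44 for the replicate 1 pair of libraries at either oxygen level and 0.82 for the replicate 2 pair at either level. This describes many sites of the same pairs of libraries and is no test.

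At other sites with CTCF and RAD21 the medians of the per-site RAD21 differences were above 0. The medians, 4% minus 20% O2, were -6.04 and -2.53 points in the 2 rounds at the anchors, against 6.30 and 3.65 points at the 2487 gene-end sites with H3K9ac and 5.51 and 0.35 points at the distal sites with H3K9ac. Tested over libraries, the anchors' oxygen difference in median RAD21 rank minus that of the gene-end sites was -14.8 points (exact permutation p = 0.667), and minus that of the distal H3K9ac sites it was -9.82 points (exact permutation p = 0.333, the smallest possible). Ranks sum to a constant within a library, so higher ranks at some sites mean lower ranks at others, and no direction of absolute binding follows.

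**Figure D4:**
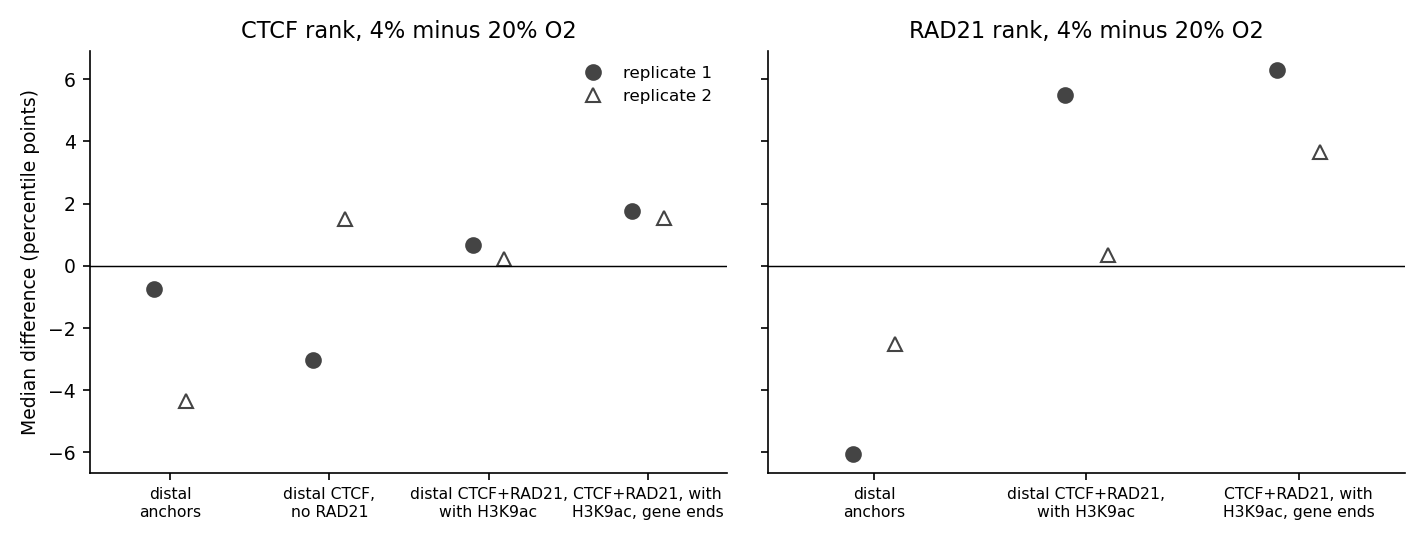
Median over sites of the difference in score rank, 4% minus 20% O2, in percentile points, for CTCF (left) and RAD21 (right) at the distal anchors and at the other classes of CTCF sites; filled circles are replicate 1 and open triangles replicate 2. For RAD21 the anchors lie at -6.04 and -2.53 points and the gene-end sites at 6.30 and 3.65 points.

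Within the anchors, the RAD21 difference ran in opposite directions with and without a POLR2S2 island. At the 663 anchors inside genes with a POLR2S2 island in all 4 libraries, the median RAD21 rank was 40.4 and 42.8 at 4% O2, against 34.8 and 29.9 at 20% O2. At the 2902 anchors inside genes with no POLR2S2 island it was 36.9 and 33.3 at 4% O2, against 46.3 and 38.1 at 20% O2. At the 3961 anchors outside genes it was 34.2 and 30.9 at 4% O2, against 48.6 and 39.5 at 20% O2. The oxygen groups did not overlap in any of the 3 sets, with 4% O2 above in the first and below in the other sets. The difference between the first and the second set, 4% minus 20% O2, was 16.4 points, 14.9 and 17.8 within rounds, with an exact permutation p of 0.333, the smallest possible. These splits were chosen after the data were seen, and 10 differences between such sets were computed for CTCF and RAD21; with a smallest possible p of 0.333, none can pass 0.05 before or after adjustment, and the values describe these libraries.

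Among these 663 anchors inside genes with POLR2S2, 127 (19.2%) ranked at least 10 points higher in RAD21 at 4% O2 in both rounds, where 8.63% of all ranked regions did so, and 12 (1.81%) ranked lower, where 10% did so. Among anchors outside genes 80 (2.02%) ranked higher and 957 (24.2%) lower. The sets also differed in place: the 663 lay a median of 8623 bp from an H3K9ac peak, against 15198.5 bp for in-gene anchors without POLR2S2. Between 5 and 50 kb from H3K9ac lay 430 of the anchors with POLR2S2 and 1709 of the in-gene anchors without. The RAD21 median at the 430 was 41.4 and 42.8 at 4% O2 and 35.8 and 29.4 at 20% O2. At the 1709 it was 41.2 and 35.7 at 4% O2 and 45.7 and 39.3 at 20% O2. The directions were also opposite within this band, but at the 1709 the oxygen groups overlapped.

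CTCF was compared over the same sets. At the 663 anchors its median rank was 66.6 and 69.7 at 4% O2, against 66.3 and 63.9 at 20% O2, and at the in-gene anchors without POLR2S2 it was 63.0 and 57.9 at 4% O2, against 63.8 and 62.7 at 20% O2. The oxygen differences of the 2 sets differed by 5.89 points (exact permutation p = 0.333), of which the rounds gave 1.10 and 10.7 points.

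**Figure D5:**
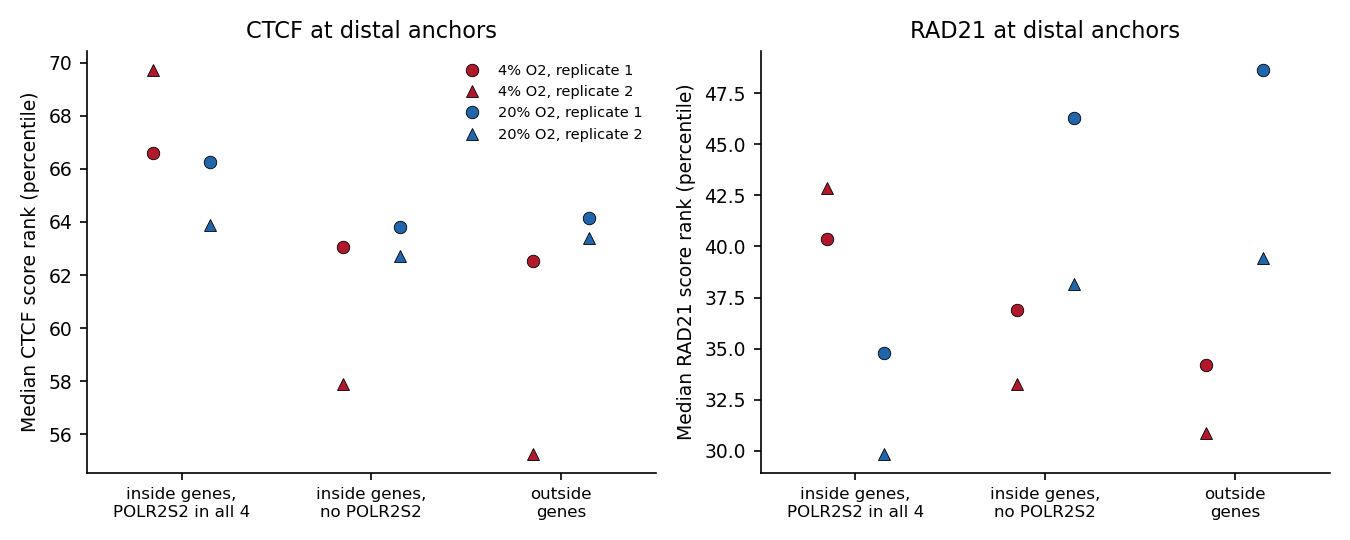
Median score rank (percentile) of CTCF (left) and RAD21 (right) at anchors inside genes with a POLR2S2 island in all 4 libraries, inside genes with none, and outside genes. Each point is 1 library (4% O2 red, left; 20% O2 blue, right; circles replicate 1, triangles replicate 2); for RAD21 the 4% O2 points lie above the 20% O2 points in the first set and below them in the other sets. The axes do not start at 0.

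The RAD21 difference also varied with the distance from active chromatin. At the 1526 anchors 50 kb or more from an H3K9ac peak, the median RAD21 rank was 26.0 and 18.9 at 4% O2, against 50.2 and 31.0 at 20% O2. At the 2371 anchors under 5 kb from one it was 39.6 and 40.0 at 4% O2, against 42.1 and 40.3 at 20% O2. The oxygen difference of the far anchors minus that of the near ones was -16.8 points (exact permutation p = 0.333), and -21.7 and -11.8 points within rounds. The far anchors were thus the ones whose RAD21 standing was most unlike between the oxygen levels among the sets compared here.

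Where a POLR2S2 island was called at 4% O2 only, RAD21 ranked 42.2 and 41.1 at 4% O2 and 37.1 and 34.8 at 20% O2 over 110 anchors. Where it was called at 20% O2 only, RAD21 ranked 30.2 and 39.6 at 4% O2 and 43.3 and 34.1 at 20% O2 over 55 anchors. The 2 oxygen differences of these medians differed by 9.52 points (exact permutation p = 0.333), of which the rounds gave 18.3 and 0.78 points. The medians of the per-site differences were 2.40 and 6.78 points over the 110 anchors, against -0.31 and 2.58 points over the 55. How the rounds shared the gap thus depended on the measure.

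CTCF peaks at the anchors had median widths of 498 and 533 bp at 4% O2, against 556 and 693 bp at 20% O2. The groups did not overlap, and the difference of -109 bp had an exact permutation p of 0.333. Without 20% O2 replicate 2 it was -40.5 bp, and without 20% O2 replicate 1 it was -178 bp. RAD21 widths of 382 and 378 bp at 4% O2 lay between the 338 and 477 bp at 20% O2, and the difference of -27.5 bp (exact permutation p = 1) was 42.0 bp without 20% O2 replicate 2. The width of a called peak rises with its signal over background, and that part was not tested.

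The 6 anchors with the highest mean RAD21 rank had ranks of 96.2 to 99.97 in every library. The highest, at chr10:75150144-75153407 inside Bcr, which encodes a GTPase-activating protein, ranked 99.0 and 99.8 at 4% O2, against 99.7 and 99.7 at 20% O2, and carried a POLR2S2 island in all 4 libraries. The others lay inside Ablim1, an actin-binding LIM protein, and Efcab2, and between genes nearest to Rbm34, Wsb1 and Pax7. At the anchor near Pax7, chr4:139877919-139878882, the best RAD21 peak over the CTCF region itself scored 330 and 517 at 4% O2, against 41.1 and 84.1 at 20% O2, while the ranks of 96.2 and 99.97 at 4% O2 and 98.8 and 99.8 at 20% O2 belong to the larger merged RAD21 region. The rank of such a site thus also reflects peaks beside the CTCF region.

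The anchors with the largest differences of the same sign in both rounds were chosen by those values and are described without a test. RAD21 was higher at 4% O2 at chr11:115713993-115715446, 5396 bp from the end of Grb2, an adaptor of receptor tyrosine kinases, where it ranked 75.7 and 73.4 at 4% O2, against 21.5 and 25.3 at 20% O2. Inside Rab11fip3, a Rab11 effector of endosome recycling, it ranked 57.7 and 83.0 at 4% O2, against 9.73 and 28.4 at 20% O2. Inside Tbc1d31 it ranked 72.3 and 48.6 at 4% O2, against 11.8 and 4.46 at 20% O2, and that anchor had a POLR2S2 island in all 4 libraries. CTCF at these 3 anchors was higher at 4% O2 as well, by 5.04 and 14.7 points near Grb2, 6.27 and 2.56 in Rab11fip3 and 7.79 and 21.9 in Tbc1d31.

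RAD21 was lower at 4% O2 at chr6:50678875-50679860, 24430 bp from Npvf, which encodes an RFamide neuropeptide precursor, with ranks of 8.07 and 6.77 at 4% O2, against 78.7 and 58.3 at 20% O2. CTCF there ranked 90.2 and 27.1 at 4% O2, against 83.8 and 63.4 at 20% O2, so that it was lower only in replicate 2. At chr10:22212236-22212649, 22539 bp from Raet1e, which encodes a ligand of the NKG2D receptor, RAD21 ranked 2.02 and 5.24 at 4% O2, against 52.0 and 50.1 at 20% O2. Inside Serpinb1c, a serine protease inhibitor gene, it ranked 12.2 and 4.07 at 4% O2, against 56.1 and 51.8 at 20% O2. None of these 3 anchors overlapped a polymerase island in any library.

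CTCF was higher at 4% O2 inside Ube2o, a ubiquitin-conjugating enzyme, with ranks of 66.6 and 66.5 at 4% O2, against 47.4 and 43.0 at 20% O2, and inside Msh4, a meiotic MutS homologue, with 40.8 and 58.8 at 4% O2, against 22.7 and 33.7 at 20% O2. At the third such anchor, 298714 bp from Eipr1, CTCF ranked 51.8 and 78.4 at 4% O2, against 34.1 and 59.3 at 20% O2, and RAD21 ranked 76.6 and 79.0 at 4% O2, against 24.6 and 53.8 at 20% O2. CTCF was lower at 4% O2 inside Slc7a7, an amino acid transporter, with 57.4 and 26.3 at 4% O2, against 81.8 and 61.3 at 20% O2. It was also lower inside Fkbp6, with 50.4 and 28.1 at 4% O2, against 74.2 and 56.1 at 20% O2, and 88141 bp from Slc38a6, with 34.5 and 12.8 at 4% O2, against 58.1 and 36.2 at 20% O2. RAD21 differed in the same direction as CTCF in both rounds at Msh4 and near Eipr1, where both were higher, and at Fkbp6 and near Slc38a6, where both were lower. At Ube2o and Slc7a7 the RAD21 differences had opposite signs in the 2 rounds.

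Lists of genes known for CTCF-bound loci, for neuroblasts, for the oxygen response and for the machinery itself were searched for anchors within 100 kb. Of 46 listed genes in the annotation, 24 had one, where 64.1% of all protein-coding genes did. The 46 include lncRNAs such as H19 and Xist, which that share does not count. The imprinted cluster on chromosome 7 had the most, with 5 anchors around H19, a maternally expressed lncRNA, the nearest 737 bp away, and 4 around Igf2, its paternally expressed growth factor neighbour; some serve both. The nearest to H19, chr7:142578883-142579586, had low RAD21 ranks of 11.5 and 17.1 at 4% O2, against 2.88 and 14.7 at 20% O2. The nearest to Igf2, 4961 bp away, ranked 80.3 and 72.7 at 4% O2, against 82.9 and 62.5 at 20% O2. Of 7 imprinted genes 3 had an anchor, and Meg3, Dlk1, Peg3 and Grb10 had none. Among Hox genes, which pattern the body axis, Hoxa13 had an anchor, and Hoxd13 and Hoxd1 had none. Xist and Tsix, the lncRNAs of X inactivation, shared the same 1 anchor. The beta-globin gene Hbb-bs had 1 anchor, and Firre, Sox9 and Myc had none.

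Of 10 neuroblast and sympathetic genes, 5 had an anchor (Phox2a, Gata3, Th, Dbh and Nos1), and Mycn, Hand2 and Isl1 were among those with none within 100 kb. Nos1 held all 3 of its anchors inside the gene. The nearest to its ends, chr5:117945970-117947969, had RAD21 ranks of 87.9 and 87.9 at 4% O2, against 86.7 and 57.3 at 20% O2, and CTCF ranks of 88.5 and 90.1 at 4% O2, against 85.5 and 77.1 at 20% O2. Both were higher at 4% O2 mainly in replicate 2. At the anchor nearest to Phox2a, 27222 bp away inside Folr2, RAD21 ranked 10.1 and 44.4 at 4% O2, against 11.9 and 47.7 at 20% O2. The sign differed between rounds at Gata3, Th and Dbh. At Th, which encodes tyrosine hydroxylase, RAD21 ranked 11.8 and 9.03 at 4% O2, against 24.0 and 6.42 at 20% O2.

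Of 11 oxygen-responsive genes in the annotation 7 had an anchor, and Vegfa, Slc2a1, Pgk1 and Kdm3a had none. At the anchor 4039 bp from an end of Pdk1, a kinase that inhibits pyruvate dehydrogenase, RAD21 ranked 32.7 and 38.0 at 4% O2, against 19.3 and 26.3 at 20% O2. At the anchor 13012 bp from Bnip3, a mitophagy receptor, it ranked 61.8 and 59.1 at 4% O2, against 38.2 and 52.8 at 20% O2. At the anchor nearest to Hk2, a hexokinase, RAD21 ranked 11.6 and 1.31 at 4% O2, against 35.3 and 12.1 at 20% O2. That anchor lay 69860 bp from Hk2 and nearer to Sema4f. Inside P4ha1, a collagen prolyl hydroxylase subunit, RAD21 ranked 15.9 and 13.2 at 4% O2, against 27.3 and 16.9 at 20% O2. At Adm, Ldha and Egln3 the sign differed between rounds. Anchors within 100 kb of the oxygen-responsive genes thus had RAD21 differences of either sign. Whether an anchor acts on the listed gene was not tested.

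Of 8 CTCF and cohesin genes 5 had an anchor (Ctcf, Rad21, Smc1a, Stag1 and Wapl, the cohesin release factor, which had 4). At the anchor 29581 bp from Wapl, RAD21 ranked 48.8 and 29.3 at 4% O2, against 67.7 and 62.2 at 20% O2, and CTCF 74.3 and 37.5 at 4% O2, against 76.1 and 72.5 at 20% O2. At the anchor nearest to Rad21 itself, 49792 bp away, RAD21 ranked 56.8 and 37.2 at 4% O2, against 60.8 and 61.6 at 20% O2. At the one nearest to Ctcf, 80778 bp away inside Atp6v0d1, RAD21 ranked 92.8 and 88.8 at 4% O2, against 90.6 and 87.5 at 20% O2. The sign differed between rounds at Smc1a, with 45.8 and 50.4 at 4% O2 against 9.73 and 63.0 at 20% O2, and at Stag1, with 57.7 and 46.6 at 4% O2 against 38.9 and 59.3 at 20% O2. No shared direction was seen over these genes. Stag1 held 1 of its 2 anchors, and Smc3, Stag2 and Nipbl had none.

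Among anchors at non-coding genes, 69 overlapped the start window of 70 lncRNAs and 7 overlapped a microRNA hairpin. The strongest by RAD21 rank, chr4:139643337-139645112, overlapped Mir7020 inside Aldh4a1, a mitochondrial dehydrogenase of proline breakdown, with RAD21 ranks of 97.5 and 97.3 at 4% O2, against 95.1 and 97.6 at 20% O2. The next were at Gm52507, Gm52034, Gm39360, Gm32850 and A230108P19Rik. At Gm52034, inside Slc38a9, a lysosomal amino acid transporter, the RAD21 peak over the CTCF region scored 504 in 4% O2 replicate 1 and 11.9 in replicate 2, against 9.92 and 9.53 at 20% O2, so its RAD21 rank rests on peaks beside the CTCF region in the other libraries. At A230108P19Rik, whose sequence is shown above, RAD21 ranked 82.5 and 67.8 at 4% O2, against 86.3 and 90.3 at 20% O2.

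The label neuroblast was checked with H3K9ac peaks within 1 kb of gene ends. Of 10 neuroblast and sympathetic markers 8 were called in each of the 4 libraries, with Gata3 and Nos1 in none, and of 4 neuronal markers 4 were called in each. Of 4 endothelial markers 0 were called in any library, and of 4 markers each of macrophages and microglia, of astrocytes, of fibroblasts and of Schwann cells and oligodendrocytes between 1 and 3 were called. A mark at a gene end does not give expression. CTCF lists held 73200 to 126873 peaks, RAD21 lists 26908 to 73328, and their read depth was not known.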

How the data were processed

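The files are the authors' deposited peak lists, on mm10. Tools named in the submitters' processing notes are BWA, Picard and SICER, and for part of the samples MACS2; their versions, thresholds and read numbers were not known. CTCF, RAD21 and H3K9ac lists hold MACS2 peaks with a deposited score taken to be a −log10 q-value, since no value was below 2.00; POLR2, POLR2S5 and POLR2S2 lists hold SICER islands with a deposited read count. Lists were made per library. For replicate 2, the list under its own label holds summits or a copy of the second list placed with replicate 1, with equal scores, and that list was used.

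Overlap was at least 1 bp, with RefSeq GRCm38.p6 genes. Library medians and shares were compared by exact two-sided permutation (4% against 20% O2) or sign flips (between classes), with Python 3.11.15, NumPy 2.4.6, pandas 2.3.3 and SciPy 1.17.1; the code was tested on simulated lists. The file headers name 3 flow cells. Libraries of the same replicate number need not share a flow cell, and a round here means only the replicate number. Deviations of same-numbered libraries correlated at 0.69 (CTCF) and 0.40 (RAD21).

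The members, gene lists and splits were chosen with earlier results of these data known. Named were the 6 anchors highest in RAD21, the 3 largest same-sign changes of CTCF and RAD21 in each direction, the anchors nearest to listed genes, the densest windows and genes, and the 6 strongest non-coding anchors. The planned motif search over all anchors needs a genome not used here, and promoter windows were searched in its place; the 7 sequences around core motifs fall outside the planned choice of sequences. Motif searches with the shorter pattern or 1 mismatch, the splits by POLR2S2 and distance, rank comparisons between classes, and a RAD21 ranking over CTCF regions were added after seeing the data. Some genes of the lists are not reported here by name.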

Additional observations from a re-analysis of the deposited data

How the results depend on the processing

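Of 94 alternatives over 14 results, 7 reversed the direction and 3 moved a value with no test. The other 84 are no measure of stability, since no test here can reach 0.05, the replicate block repeats each value by construction, and the RAD21 rank among the anchors alone is counted with them. The number of anchors was 6017 to 9479 under other overlaps, thresholds and distances, and 9226 to 10834 with 1 replicate left out. Ranked among the anchors alone, where medians are equal by construction, the CTCF difference was 0.043 points and the RAD21 difference -0.043. Leaving out 1 library gave differences, 4% minus 20% O2, of -4.58 to -0.48 (CTCF rank), -10.05 to -2.25 (RAD21 rank), -178 to -40.5 bp (CTCF width), -97.0 to 42.0 bp (RAD21 width), -0.89 to 4.19 points (POLR2 share), -2.98 to 2.42 (POLR2S5) and -1.22 to 4.61 (POLR2S2); the last 4 changed sign. The POLR2 share was -0.12 without 4% O2 replicate 2 and -0.89 without 20% O2 replicate 1, the POLR2S5 share 0.81 without 4% O2 replicate 1 and 2.42 without 20% O2 replicate 2, and the POLR2S2 share -1.22 without 20% O2 replicate 1. Against CTCF sites without RAD21, the differences of the shares were -13.9 to -9.45 (POLR2), -18.0 to -14.3 (POLR2S5) and -16.5 to -13.3 points (POLR2S2). With a replicate block (differences within replicate numbers) the RAD21 and CTCF rank differences were the same -6.15 and -2.53 points. Their sign-flip permutation p was 0.5, the smallest 2 pairs allow, and the block changed no other call. The mean of the 4 libraries' median distances between CTCF and RAD21 peak centres, 63.4 bp, was 36.9 bp at anchors with a single peak per list, and the mean of the 2 median distances between replicate 2 summits was 17.0 bp; the cause was not tested. With non-coding genes included, 63.1% of anchors lay inside genes against 54.9%. RAD21 ranked over CTCF regions, an alternative chosen after seeing the data, differed by -6.09 points. The motif share over all anchors was not run. Having 2 libraries per group and not knowing read numbers limits every comparison.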
